A study of Mus musculus with 20 samples.

Results

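The comparison set 4 libraries of FAP against 2 libraries of SMP, both from WT mouse muscle, across every gene of the deposited count table. The 6 libraries were taken by their titles alone, from 20 in the series, and no measured value entered the choice. FAP commonly stands for fibro/adipogenic progenitors and SMP for skeletal muscle progenitors. The series title concerns which cells express extracellular matrix in fibrotic muscle, and the WT groups carry no label of injury or treatment. The whole series holds FAP, SMP and a population called Misc from WT and DKO mice, with 4 libraries in each FAP and Misc group and 2 in each SMP group. The source muscles are given as quadriceps, tibialis anterior and gastrocnemius. The labels do not say how the populations were separated, what age, sex or strain the mice were, or which genes DKO stands for. RNA was read with paired reads, and values are given as CPM, which are counts scaled to the same library total with TMM factors.

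As background, fibro/adipogenic progenitors are mesenchymal cells that lie between muscle fibres, carry the receptor PDGFRα, lay down much of the interstitial matrix and secrete factors that act on muscle stem cells. They can turn into fibroblasts or fat cells. Muscle progenitors, or satellite cells, lie under the basement membrane of each fibre and are held quiescent by Notch signalling and by the calcitonin receptor. They carry the transcription factor PAX7, and after injury they divide, switch on MYOD1 and myogenin, and fuse into fibres.

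The 4 genes given as markers separated the 2 populations as their labels name them. Pdgfra, the receptor that defines fibro/adipogenic progenitors, stood at 1205, 1201, 1092 and 1343 CPM in the 4 FAP libraries and at 9.32 and 10.4 in the 2 SMP libraries. Ly6a, which encodes the surface protein Sca-1, stood at 615, 703, 616 and 515 CPM in FAP and at 8.11 and 6.93 in SMP. The SMP mean was 0.816% of the FAP mean for Pdgfra and 1.23% for Ly6a. In the other direction, Pax7 stood at 262 and 271 CPM in SMP and at 0.393, 0.304, 0.167 and 0.0952 in FAP. Myod1 stood at 132 and 140 CPM in SMP and at 0.393, 0, 0.0835 and 0.0952 in FAP. The log2 difference, written here as FAP over SMP, was 6.94 ± 0.71 for Pdgfra, 6.34 ± 0.85 for Ly6a, −10.02 ± 0.47 for Pax7 and −9.67 ± 0.60 for Myod1. Each passed at an adjusted p of 1.1e-05 or below in edgeR's quasi-likelihood test (Benjamini-Hochberg over 14179 genes, 4 libraries against 2), which is the test behind every adjusted p below, with 0.05 as the threshold. The value after ± of a log2 difference is only an approximate standard error. It is the size of the difference divided by the square root of the F statistic of that test.

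**Figure D1:**
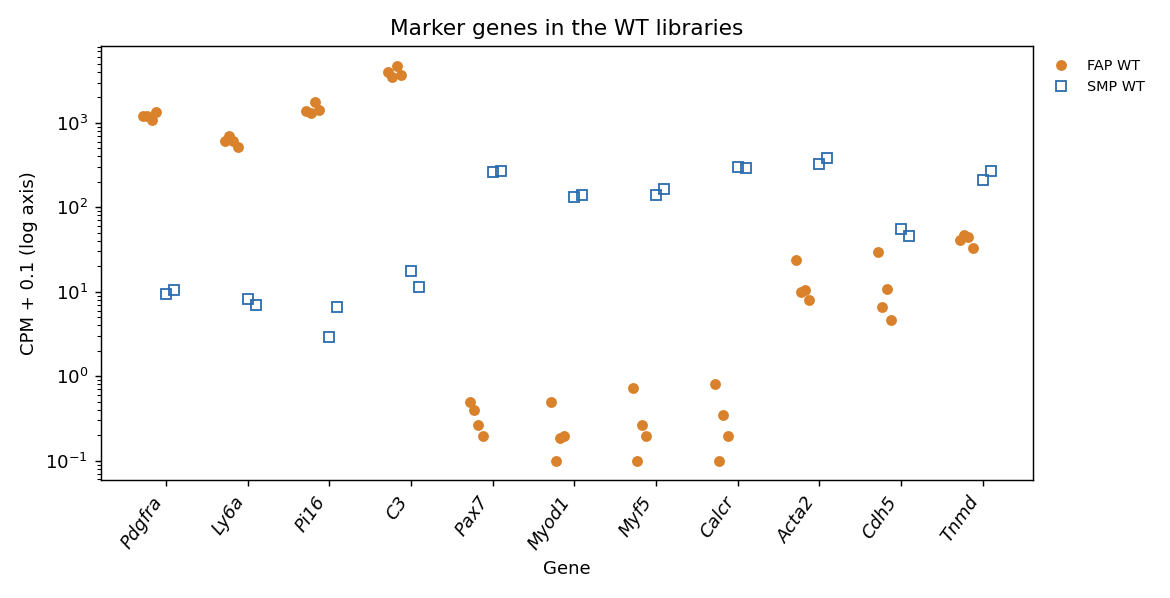
Level of 11 marker genes in each of the 6 WT libraries, on a log axis as CPM plus 0.1 so that zeros can be drawn. Filled circles are the 4 FAP libraries and open squares the 2 SMP libraries. Pdgfra, Ly6a, Pi16 and C3 lie higher in all FAP libraries, and Pax7, Myod1, Myf5 and Calcr higher in all SMP libraries. The smooth muscle, endothelial and tendon markers Acta2, Cdh5 and Tnmd also lie higher in SMP. The summed endothelial list is higher in FAP, while the median log2 difference (FAP over SMP) of its members is −1.16.

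Markers of other cells were present as well, and their counts stand against the 31.1% of all genes called higher in FAP and the 31.3% higher in SMP. Of 14 pericyte and smooth muscle genes tested 10 were called higher in SMP and 2 in FAP, of 14 Schwann and nerve sheath genes 11 and 3, of 16 endothelial genes 1 and 2, and of 15 leukocyte genes 1 and 0. The endothelial count depends on the libraries, with 8 higher in SMP without FAP replicate 1 and 0 without any one of the other 5. With the replicate number as a block 0 were higher in SMP, and with the column letters as a block 10. Summed over the endothelial genes, the level was 506 to 671 CPM in FAP and 396 and 298 in SMP. That sum ran opposite to Cdh5, the 1 member called higher in SMP. It also ran opposite to the median log2 difference (FAP over SMP) of the 16 members, −1.16, and 13 of them did not pass. Summed over the pericyte and smooth muscle genes, the level was 437 to 600 CPM in FAP and 1904 and 1921 in SMP. Among them Acta2, smooth muscle actin, was at 323 and 382 CPM in SMP and 7.81 to 23.9 in FAP, and Myh11, smooth muscle myosin, at 249 and 233 against 7.52 to 18.1. FAP replicate 1 had the highest FAP values of the endothelial gene Cdh5 (29.1 CPM against 4.57 to 10.6, with 55.9 and 46.2 in SMP) and the pericyte gene Rgs5 (20.8 against 3.52 to 8.18). Leukocyte genes summed to 48.0 CPM in FAP replicate 1, to 13.8 to 18.6 in the other FAP libraries, and to 32.2 and 23.8 in SMP. The pan-leukocyte gene Ptprc was at 1.81 CPM in FAP replicate 1 and at 0.162 CPM or less in the other 5 libraries. Of the erythroid list only Alas2 passed the filter on low counts, at up to 1.57 CPM, and the adipocyte genes Adipoq and Plin1 did not pass that filter. Tendon genes, which the Misc population holds at high levels, were also in SMP, and their values stand beside the matrix results below. In bulk RNA, fewer cells of a type and less RNA per cell cannot be told apart.

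Library totals were 10464761 to 13042515 counts in FAP WT and 10659399 and 9669174 in SMP WT. On the first principal component of these 6 libraries, which held 87.6% of the variance, FAP lay at −64.2 to −56.2 and SMP at 120.3 and 121.2. The second held 4.7% and set SMP replicate 1 (33.8) apart from SMP replicate 2 (−33.8). Pearson's r across genes was 0.985 to 0.99 between FAP libraries, 0.975 between the SMP libraries and 0.82 to 0.827 between the populations.

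Most genes differed between the populations. Of 14179 genes tested, 8838 passed, or 62.3%, with 4407 higher in FAP (31.1% of all tested) and 4431 higher in SMP (31.3%). Differences of at least 4-fold were called for 1100 genes higher in FAP (7.76%) and 1162 higher in SMP (8.2%). The 6 values did not overlap between the populations for 71.8% of genes. The even split of calls depends on the scaling. TMM factors were 0.9434 to 0.9883 in FAP and 1.158 and 1.18 in SMP. With library totals alone, the median log2 difference over all genes moved from −0.02 to −0.28 and the share of calls higher in FAP from 49.9% to 36%. Counts of called members in the gene groups below stand against the 31.1% and 31.3% of all genes.

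**Figure D2:**
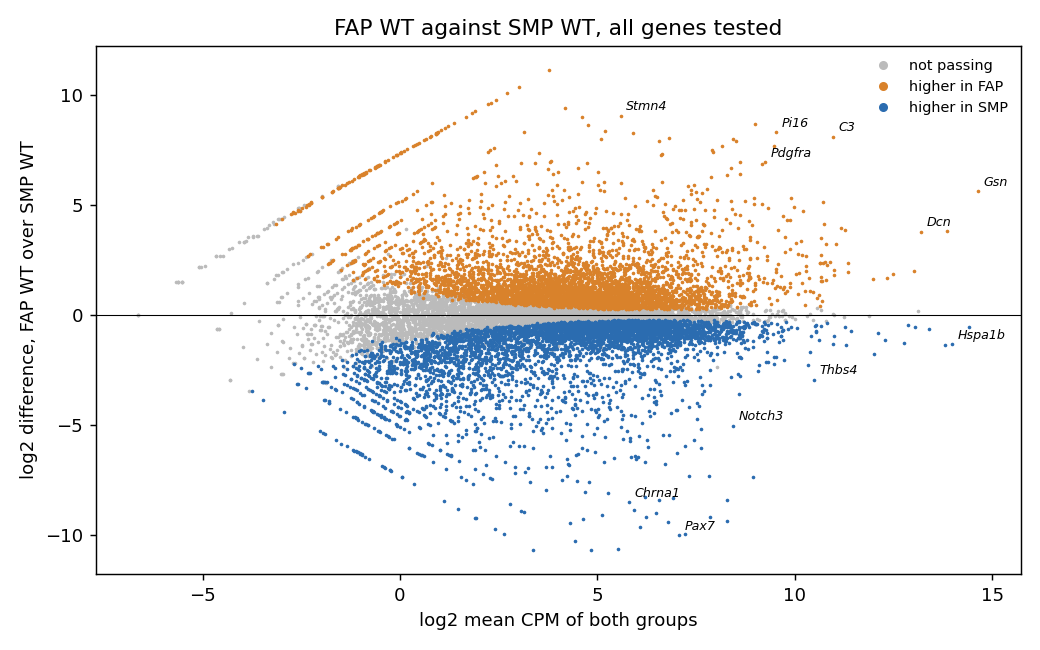
Log2 difference between FAP WT and SMP WT (vertical axis) against the log2 mean CPM of both groups (horizontal axis, with 0.01 added) for all 14179 genes tested. Orange points are the 4407 genes called higher in FAP, blue points the 4431 called higher in SMP, and grey points did not pass. Labels mark genes named in the text.

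The 15 genes with the largest fold in FAP included 9 with no read in SMP, among them the Wnt ligands Wnt10b and Wnt2. Wnt10b, a Wnt ligand known to hold back fat cell formation, had 25.4, 22.5, 35.8 and 26.4 CPM in FAP and no read in either SMP library. It was at least 220-fold higher in FAP, taking 3 counts over the SMP group as the floor. Wnt2, a second Wnt ligand, had 11.1, 10.9, 14.9 and 15.6 CPM in FAP, no read in SMP, and was at least 104-fold higher. The serine protease inhibitor gene Serpina3c (14.1 to 18.3 CPM in FAP, at least 128-fold) and the metalloproteinase Mmp27 (6.08 to 12.2 CPM, at least 76.7-fold) had no SMP read either. The same held for the steroid-metabolising enzyme Akr1c18 (2.75 to 10.1 CPM, at least 49.1-fold) and the orphan receptor Mrgprg (2.23 to 20.8 CPM, at least 87.2-fold). Krtdap (at least 59.0-fold), Lrrtm3 (at least 55.3-fold) and the surface protein gene Cdcp1 (at least 40.4-fold) completed the genes of this rank without an SMP read. The protease Adamts16 had 1 SMP read and 28.8 to 42.0 CPM in FAP, a ratio of 869 with a 95% counting interval of 156 to 34336. Cmah, which makes a sialic acid, had 3 SMP reads and 54.5 ± 5.10 CPM (SD, n = 4) in FAP, a ratio of 430 (147 to 2088). Stmn4, a stathmin family gene, was at 79.0, 135, 94.1 and 77.2 CPM in FAP against 0 and 0.351 in SMP (9.05 ± 0.69). The esterase Ces1d (8.34 ± 0.57) and the interferon-inducible Ifi205 (8.68 ± 1.02) followed. Ifi202b, of the same family as Ifi205, was uneven within FAP, at 71.7, 89.7, 31.6 and 0.571 CPM, against 2 reads in SMP. Serpina3c, Ces1d, Ifi202b, Ifi205 and Ly6a have closely related copies, among which reads may be split.

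The 15 genes with the largest fold in SMP included the myogenic factors Pax7, Myod1 and Myog. Popdc3, a membrane protein of heart and skeletal muscle, had 18.6 and 22.7 CPM in SMP and no read in the 4 FAP libraries, and was at least 310-fold higher in SMP. Vgll2, a cofactor of TEAD factors in muscle, was at 64.1 and 51.3 CPM in SMP with 1 FAP read, a ratio of 2613 (468 to 103292). Fndc3c1 was at 84.4 and 98.5 CPM with 2 FAP reads (ratio 2056, 568 to 16987). Myog, which encodes myogenin, was at 18.0 and 68.0 CPM with 1 FAP read (ratio 1895, 339 to 74937). The calcium channel subunit Cacna2d4 (at least 186-fold), Nol4 (at least 158-fold), the non-coding RNA Nctc1 (at least 114-fold) and the limb muscle precursor factor Lbx1 (at least 111-fold) had no FAP read. Lmod2, which sets actin filament length in striated muscle, was at 43.7 and 35.2 CPM (ratio 894, 247 to 7389), and Rhoh, a small GTPase, at 46.6 and 52.5 (ratio 743, 254 to 3609). Calcr, the calcitonin receptor that keeps satellite cells quiescent, was at 301 and 292 CPM in SMP and at 0.707, 0, 0.250 and 0.0952 in FAP (−9.95 ± 0.63). The BMP antagonist Chrdl2 (−9.42 ± 0.38) and Fam132b, which encodes the secreted factor erythroferrone (−9.40 ± 0.48), completed the 15.

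By absolute level, the widest gap in FAP was that of Gsn. Gsn, which encodes the actin-severing protein gelsolin, was at 51195, 49243, 51553 and 49706 CPM in FAP and at 957 and 1086 in SMP (5.62 ± 0.52). Col3a1, Col1a2 and Col1a1, the small proteoglycan Dcn, and the matrix genes Sparc, Fn1, Fbn1 and Nid1 came with it, as did the complement component C3. In SMP the widest gaps included chaperone genes. The stress-inducible Hspa1b was at 25065 and 21239 CPM in SMP and at 8844, 8892, 9762 and 9033 in FAP (−1.34 ± 0.16), and its near-identical copy Hspa1a was at 22508 and 19035 against 7556, 7624, 8458 and 8037 (−1.39 ± 0.17). Between these paralogs the counting could split reads either way. Hsp90aa1 (−1.27 ± 0.18), Hsp90ab1 (−1.17 ± 0.13), Hsph1 (−1.79 ± 0.19), Hspa8 (−0.65 ± 0.15) and Hspa5 (−0.84 ± 0.17), all chaperones, were higher in SMP too. So were the elongation factor Eef1a1 (−0.54 ± 0.12) and the immediate early gene Egr1 (−0.47 ± 0.13). Without SMP replicate 1, Egr1 did not pass (−0.34, adjusted p = 0.1).

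**Figure D3:**
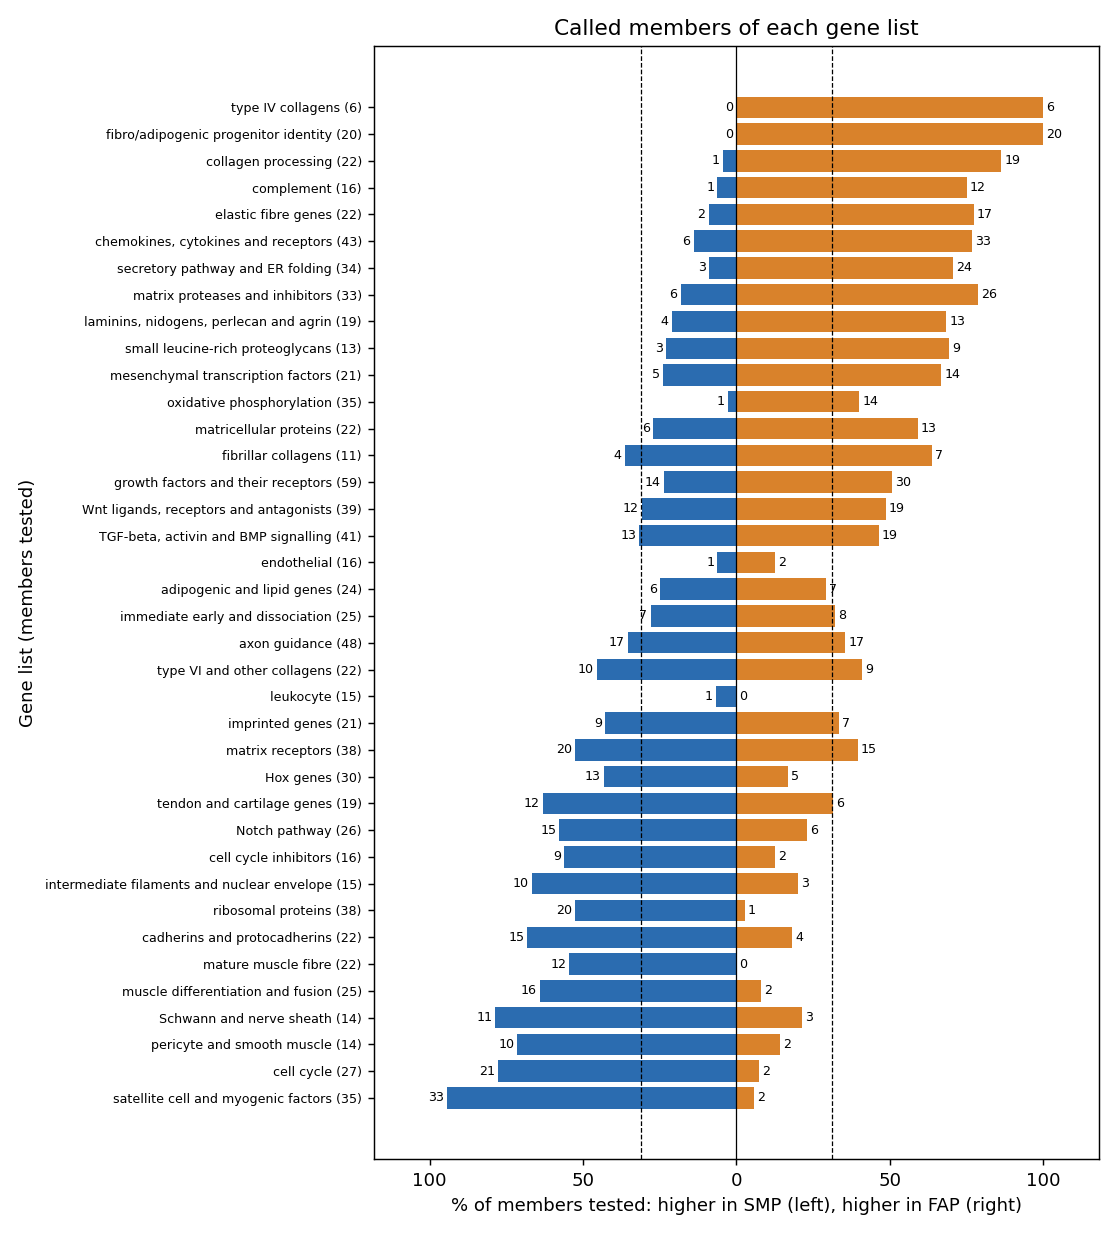
Members of each gene list called higher in FAP (orange, to the right) and higher in SMP (blue, to the left), as a percentage of the members tested, with the numbers of members at the bar ends. Dashed lines mark the 31.1% and 31.3% found over all 14179 genes.

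Identity genes of fibro/adipogenic progenitors were higher in FAP without exception, 20 of 20 tested, with a median log2 difference of 4.92 against −0.02 over all genes. This list, like the others, was chosen with earlier results of these data known. Its summed level was 83160 to 85403 CPM in FAP, 3138 and 3400 in SMP, and 39763 to 44461 in Misc WT. Pi16, a marker of universal fibroblasts, was at 1375, 1317, 1748 and 1432 CPM in FAP and at 2.84 and 6.57 in SMP (8.29 ± 0.91). Cd248, or endosialin, was at 526, 449, 439 and 498 CPM against 1.86 and 3.42 (7.50 ± 0.63). The list spread from these down to Lox, a collagen cross-linking enzyme, at 317 to 370 CPM in FAP and 192 and 133 in SMP (1.10 ± 0.20). Mesenchymal transcription factors were mixed, with 14 of 21 higher in FAP and 5 higher in SMP. The zinc finger factor Osr1 was at 44.3, 37.0, 45.2 and 53.4 CPM in FAP against 0.162 and 0.701 in SMP (6.69 ± 0.49), and its relative Osr2 followed (3.69 ± 0.25). Ebf2 (3.05 ± 0.18), Tbx15 (2.55 ± 0.13) and Prrx2 (2.53 ± 0.23) were higher in FAP as well. In SMP the higher ones included the forkhead factor Foxp2 (−2.88 ± 0.19) and the tendon factor Mkx (−3.60 ± 0.21). Adipogenic and lipid genes did not lean to FAP, with 7 of 24 higher in FAP and 6 higher in SMP. Zfp423, a factor that commits cells to fat, was higher in FAP (2.67 ± 0.22), whereas Pparg, the main adipogenic factor, stood at 2.59 to 5.57 CPM in FAP and 2.51 and 1.58 in SMP and did not pass (0.95 ± 0.50, adjusted p = 0.1). With the 6 WT libraries alone, Pparg passed as higher in FAP (0.96, adjusted p = 0.035).

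Complement genes were higher in FAP, 12 of 16 tested against 1 higher in SMP, with a median of 4.28. C3, the hub of the complement cascade, was at 4010, 3486, 4746 and 3634 CPM in FAP and at 17.6 and 11.2 in SMP (8.10 ± 1.15). C7, part of the membrane attack complex, was at 551, 628, 687 and 417 CPM against 2.59 and 2.98 (7.67 ± 1.49). The proteases C1s1 (4.32 ± 0.40) and C1ra (4.25 ± 0.41), which start the classical pathway, and factor B (Cfb, 5.42 ± 0.52) were higher in FAP, as were the regulators Cd55 (4.20 ± 0.36) and Serping1 (2.39 ± 0.21). The 3 subunits of C1q, made by macrophages, had no SMP read and were at 1.18 to 1.41 CPM in FAP replicate 1 and at 0.0952 or less in the other 3. The 1 member higher in SMP was Cd59a, which blocks the attack complex; it was named after its values were seen (−0.77 ± 0.22).

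Chemokines, cytokines and their receptors leaned the same way, 33 of 43 higher in FAP and 6 higher in SMP. Cxcl14 was at 1109, 1070, 893 and 847 CPM in FAP and at 28.4 and 21.2 in SMP (5.30 ± 0.54). Ccl11, which draws eosinophils, was at 538 to 663 CPM against 30.9 and 38.0 (4.19 ± 0.36), and Ccl7, which draws monocytes, was higher too (3.79 ± 0.36). The chemokine scavenger Ackr2 was at 52.1, 51.5, 53.5 and 52.8 CPM in FAP against 0.324 and 0.526 (6.92 ± 0.39). Il6 (2.83 ± 0.37), Csf1 (2.34 ± 0.17), Tslp (3.86 ± 0.38) and Il33 (1.98 ± 0.27) were also higher in FAP. SMP held more of the chemokine receptor Cxcr4, at 193 and 226 CPM against 2.90, 1.52, 1.59 and 1.24 (−6.81 ± 0.24), and of the cytokine Clcf1, with a mean of 54.1 ± 5.82 CPM (SD, n = 2) against 2.57 to 3.14 (−4.27 ± 0.19).

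Myogenic genes were higher in SMP, 33 of 35 tested, with a median of −5.71. Besides Pax7, Myod1, Myog, Calcr and Lbx1, Myf5, a myogenic determination factor, was at 138 and 163 CPM in SMP and at 0.628, 0, 0.167 and 0.0952 in FAP (−9.20 ± 0.56). The receptor Fgfr4 was at 445 and 479 CPM against 2.04, 0.203, 0.501 and 0.0952 (−9.21 ± 0.47). Cdh15, or M-cadherin, which joins satellite cells to their fibre, was at 166 and 193 CPM against 1.18, 0, 0 and 0 (−9.03 ± 0.60). In both cases FAP replicate 1 held the highest of the low FAP values. Des, the intermediate filament of muscle, was at 171 and 184 CPM in SMP and 14.2, 18.3, 16.5 and 14.3 in FAP (−3.49 ± 0.16). Vcam1, an adhesion molecule of satellite cells that FAP also held, was at 621 and 549 CPM in SMP and 68.1 to 93.3 in FAP (−2.84 ± 0.15). The 2 members higher in FAP, named after their values were seen, were Mef2c (0.68 ± 0.19) and M1ap (2.42 ± 0.78). Neither passed without SMP replicate 2 (0.54, adjusted p = 0.07, and 1.52, adjusted p = 0.12).

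Genes of the muscle end plate were among the SMP genes. The receptor for acetylcholine at the nerve-muscle contact is built from α, β, γ, δ and ε subunits and is clustered by rapsyn and the kinase MuSK. Chrna1, the α subunit, was at 87.1 and 133 CPM in SMP and at 0.393, 0.405, 0.167 and 0.190 in FAP (−8.52 ± 0.44). Chrnb1, the β subunit, was at 219 and 221 CPM against 7.54, 3.85, 3.67 and 4.47 (−5.47 ± 0.19). Chrnd and Chrng, the δ and γ subunits, were at 1.30 and 2.02 CPM and at 1.30 and 1.67 CPM in SMP with no FAP read, so at least 24.7-fold and at least 22.2-fold higher. Rapsn was at 34.8 and 39.4 CPM against at most 0.628 (−7.32 ± 0.34), and Musk at 94.2 and 75.4 against 13.2 to 16.5 (−2.55 ± 0.19). The E-box is the word that MYOD1 and its relatives bind, and those with the centre GC, CAGCTG, or the centre GG, CAGGTG, are the forms they are known to prefer. The 250 bases before the start of Chrna1 (chr2:73580339-73580588, minus strand), Chrng (chr1:87205561-87205810, plus strand) and Des (chr1:75360042-75360291, plus strand), taken from RefSeq on GRCm38.p6, are shown because these genes stood together in SMP and their windows hold such words. They run 5′ to 3′ along the gene, with both words in capitals on either strand.
Chrna1: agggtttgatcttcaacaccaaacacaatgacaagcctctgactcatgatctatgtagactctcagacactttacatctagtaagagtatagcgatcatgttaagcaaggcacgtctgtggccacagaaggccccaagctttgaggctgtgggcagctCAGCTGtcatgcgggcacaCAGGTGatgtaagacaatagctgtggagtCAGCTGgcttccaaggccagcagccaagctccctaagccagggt
Chrng: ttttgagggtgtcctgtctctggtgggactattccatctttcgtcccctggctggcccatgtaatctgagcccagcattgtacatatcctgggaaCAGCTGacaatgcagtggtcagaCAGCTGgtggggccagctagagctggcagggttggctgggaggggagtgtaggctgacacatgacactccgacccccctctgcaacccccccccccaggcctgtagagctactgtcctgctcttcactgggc
Des: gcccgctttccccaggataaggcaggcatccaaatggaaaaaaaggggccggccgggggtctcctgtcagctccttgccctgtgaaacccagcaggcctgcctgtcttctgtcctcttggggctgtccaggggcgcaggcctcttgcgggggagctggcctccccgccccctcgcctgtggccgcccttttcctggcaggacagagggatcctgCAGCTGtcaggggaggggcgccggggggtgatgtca
Counting back from the start of the gene as −1, the Chrna1 window holds CAGCTG at −92 and −44 and CAGGTG at −73, the Chrng window CAGCTG at −155 and −132, and the Des window CAGCTG at −36. No 2 of these words overlap. Windows of the same length were found for 11146 of the genes tested, 14260 windows in all. CAGCTG stood in 12.6% of all windows, in 18.3% of the 1084 windows of genes at least 4-fold higher in SMP and in 17.2% of the 1067 windows of genes at least 4-fold higher in FAP. CAGGTG, counted on both strands, stood in 15.5%, 22% and 16.3%, and the general form CANNTG in 58.2%, 65.7% and 61%. The shares of both 4-fold groups were above that of all windows for each word, and CANNTG takes in the other two. A match is a description of the letters, and binding was not measured.

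Of 25 genes of fusion and differentiation tested, 16 were higher in SMP and 2 in FAP, with a median of −3.21. Tmem8c, the fusion protein myomaker, was at 3.40 and 12.5 CPM in SMP and at 0, 0, 0.334 and 0.0952 in FAP (−6.02 ± 0.67). The embryonic actin Actc1 was at 5.19 and 21.8 CPM against at most 0.507 (−5.99 ± 0.71), and Tnnt1, slow troponin T, at 20.0 and 20.2 against 0.405 to 0.707 (−5.27 ± 0.34). SMP replicate 2 held more Myog, Tmem8c and Actc1 than replicate 1, while Tnnt1 was level between them. The small heat shock gene Hspb8 went the other way, at 345, 385, 437 and 336 CPM in FAP and 28.7 and 25.5 in SMP (3.79 ± 0.19). Of 22 genes of mature fibres, 12 were higher in SMP and 0 in FAP. Actn3 (−4.57 ± 0.21), Atp2a1 (−3.88 ± 0.22) and Ryr1 (−4.88 ± 0.35), which serve contraction and calcium release, were among the 12. The most fibre-restricted transcripts stayed low in both populations: Ckm, muscle creatine kinase, was at 0.762 to 2.20 CPM in FAP and 1.22 and 3.24 in SMP (adjusted p = 0.58), and Acta1, skeletal actin, at 6.08 to 11.3 against 10.3 and 14.8 (adjusted p = 0.2). With the 6 WT libraries alone, Acta1 passed as higher in SMP (−0.52, adjusted p = 0.05 when rounded).

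Notch pathway genes were higher in SMP on balance, 15 of 26 against 6 higher in FAP. Notch receptors read ligands on neighbouring cells and switch on Hes and Hey repressors. Among the receptors, Notch3 was at 702 and 637 CPM in SMP and at 31.6, 13.6, 16.4 and 18.8 in FAP (−5.05 ± 0.27), and Notch1 at 281 and 260 against 24.3 to 35.9 (−3.18 ± 0.21). Notch2 was high in both, at 282 and 262 against 169 to 187 (−0.62 ± 0.12). Among the targets, Hey1 was at 159 and 170 CPM against 6.18 to 8.01 (−4.49 ± 0.13), Heyl at 307 and 301 against 12.6 to 22.8 (−4.20 ± 0.19), Hey2 lower in level but alike in direction (−3.88 ± 0.41), and Nrarp at 9.89 and 8.77 against at most 1.73 (−3.64 ± 0.51). Among the ligands, Dll1 was at 82.4 and 112 CPM in SMP against 2.92 to 5.42 (−4.56 ± 0.18), Jag1 at 133 and 115 against 67.3 to 70.0 (−0.85 ± 0.11), and Dll4 at 5.67 and 4.65 against 0.286 to 3.85 (−1.62 ± 0.58). Dll4 did not pass without FAP replicate 3 (−1.46, adjusted p = 0.054), SMP replicate 1 (−1.45, adjusted p = 0.12) or SMP replicate 2 (−1.75, adjusted p = 0.05 when rounded). FAP held more of the atypical ligands Dner, at 15.7, 9.22, 10.4 and 10.9 CPM against 0.162 and 0.175 (6.01 ± 0.61), and Dlk1 (2.12 ± 0.50). Notch3 and Heyl are also genes of pericytes and smooth muscle, whose markers Acta2, Myh11 and Rgs5 were higher in SMP. Of the 14 pericyte and smooth muscle genes tested, 10 were higher in SMP and 2 in FAP. The pericyte marker Abcc9 did not pass (0.36). The part of such cells in the Notch values was not tested.

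Most matrix families had more members higher in FAP than in SMP, with members on the SMP side in all but the type IV collagens. Fibrillar collagens build the tensile fibres of the interstitium, and 7 of 11 were higher in FAP and 4 higher in SMP. Col3a1 was at 33033, 29903, 24155 and 22983 CPM in FAP and at 2038 and 1937 in SMP (3.79 ± 0.24). Col5a3 (2.73 ± 0.19), Col5a1 (2.70 ± 0.16) and Col5a2 (2.33 ± 0.14), which nucleate fibrils, had smaller differences, and Col1a2 (2.00 ± 0.26), Col27a1 (1.88 ± 0.21) and Col1a1 (1.84 ± 0.26) smaller still. SMP held 2330 and 2663 CPM of Col1a1 where FAP held 7963 to 10351. The 4 higher in SMP were the cartilage-type chains Col11a1, at 242 and 290 CPM against 15.4 to 21.4 (−3.89 ± 0.18), Col2a1 (−4.24 ± 0.57) and Col11a2 (−3.53 ± 0.39), and Col24a1, at 21.5 and 15.3 against 0.381 to 1.34 (−4.47 ± 0.27).

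The Misc population held far more of several of these genes than either. Its mean was 38163 CPM for Col1a1 and 1275 CPM for Col11a1, so SMP stood at 6.54% and 20.8% of Misc. For the tendon genes Fmod, Tnmd, Chad and Kera, SMP stood at 3.84%, 10.8%, 4.04% and 10.3% of the Misc mean, and for the tendon factors Mkx and Scx at 11.8% and 25.0%. Of 19 tendon and cartilage genes, 12 were higher in SMP than in FAP and 6 higher in FAP. Scx, scleraxis, was at 19.9 and 19.1 CPM in SMP and 0.571 to 0.835 in FAP (−4.72 ± 0.29), and Tnmd, tenomodulin, at 209 and 268 against 33.0 to 46.6 (−2.53 ± 0.24). The shares of the Misc level thus ran from 3.84% to 25.0% for these genes, and a part of Misc-type RNA in the SMP matrix values was not tested. Other collagens stood above the Misc level, among them Col22a1, at 426 and 477 CPM in SMP, 200 in Misc and 0.952 to 5.57 in FAP (FAP over SMP −7.32 ± 0.38), and Col19a1, at 69.2 and 69.3 in SMP, 0.213 in Misc and at most 0.286 in FAP (−9.13 ± 0.58).

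**Figure D4:**
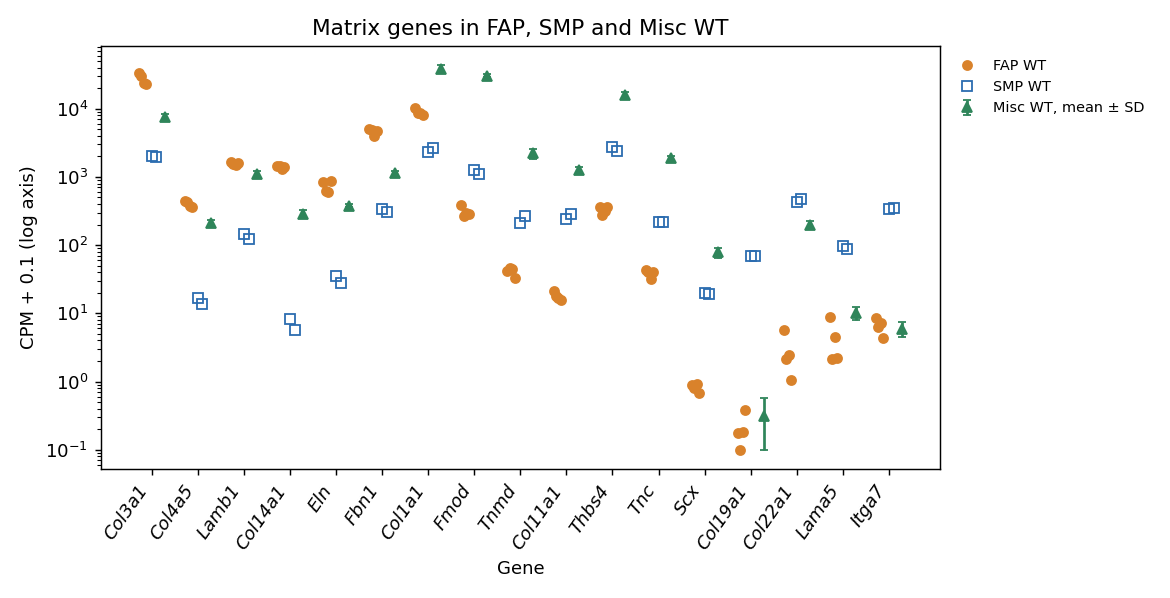
CPM (log axis, 0.1 added) of 17 matrix genes in each WT library of FAP (orange circles) and SMP (blue squares), with the mean ± SD of the 4 Misc libraries (green). Col3a1, Col4a5, Lamb1, Col14a1, Eln and Fbn1 are highest in FAP, Fmod, Tnmd, Col11a1, Thbs4, Tnc and Scx highest in Misc with SMP between, Col1a1 highest in Misc and lowest in SMP, and Col19a1, Col22a1, Lama5 and Itga7 highest in SMP.

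Basement membrane genes leaned to FAP, with chain-specific exceptions. All 6 type IV collagen genes, which form the sheet of the basement membrane, were higher in FAP, with a median of 3.33. Col4a5 was at 450, 434, 377 and 367 CPM in FAP against 16.7 and 13.7 in SMP (4.74 ± 0.36), and Col4a1 at 3583 to 4670 against 1144 and 1020 (1.92 ± 0.16), with Col4a4 (4.05 ± 0.42), Col4a3 (3.73 ± 0.42), Col4a6 (2.92 ± 0.34) and Col4a2 (2.21 ± 0.18) between. Of 19 laminin, nidogen and related genes, 13 were higher in FAP and 4 in SMP. Lama2, the α chain of the muscle laminin, was higher in FAP, at 2363 to 2576 CPM against 781 and 736 (1.71 ± 0.16), with Lamb1 (3.55 ± 0.26), Lama4 (3.55 ± 0.25) and Nid1 (3.93 ± 0.25). Lama5 was instead at 96.6 and 88.0 CPM in SMP against 2.03 to 8.71 (−4.38 ± 0.41). Lama3 was at 197 and 74.3 CPM in SMP against 3.42 to 6.44 (−4.91 ± 0.41), more than 2-fold apart between the SMP replicates, and Misc held 98.8. The laminin-binding integrin Itga7 was at 333 and 355 CPM in SMP and 4.28 to 8.48 in FAP (−5.71 ± 0.24).

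Of 22 genes of type VI and other collagens, taken as 1 list, 9 were higher in FAP and 10 higher in SMP, and the type VI chains named here were among the 9. Col6a3 was at 2756 to 3791 CPM against 180 and 194 (4.13 ± 0.25), Col6a6 at 422 to 492 against 7.21 and 4.65 (6.28 ± 0.51), and Col6a5 at 70.3 to 88.2 against 4.95 and 4.82 (3.96 ± 0.52). Col14a1, which coats fibrils, was at 1440, 1444, 1301 and 1415 CPM in FAP and 8.19 and 5.52 in SMP (7.67 ± 1.03). In SMP, Col26a1 (−5.41 ± 0.37) and Col13a1, a transmembrane collagen of the end plate (−3.51 ± 0.28), joined Col22a1 and Col19a1.

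Elastic fibre genes were higher in FAP for 17 of 22, with a median of 2.53, led by Efemp1 (5.23 ± 0.37), Mfap5 (5.18 ± 0.50), Fbln2 (4.73 ± 0.56) and elastin itself, Eln, at 847, 631, 606 and 884 CPM against 35.4 and 27.8 (4.55 ± 0.48). Collagen processing genes were higher in FAP for 19 of 22, including the proteinase enhancers Pcolce2 (5.47 ± 0.45) and Pcolce (3.08 ± 0.30), the lysyl hydroxylase Plod1 (1.96 ± 0.18) and the prolyl hydroxylase P4ha2 (1.75 ± 0.16). The 1 gene higher in SMP was the prolyl hydroxylase Leprel1, at 23.8 and 23.1 CPM against 3.17 to 5.24 (−2.52 ± 0.17), and Misc held 146. Matrix proteases and inhibitors were higher in FAP for 26 of 33. Stromelysin, Mmp3, was at 64.5, 62.6, 76.5 and 67.6 CPM in FAP against 0.405 and 0.0877 (8.0 ± 0.96), and the procollagen peptidase Adamts2 followed (4.79 ± 0.40). Adamts20 was instead at 58.9 and 65.2 CPM in SMP against 2.28 to 2.84 (−4.64 ± 0.24). Small leucine-rich proteoglycans were higher in FAP for 9 of 13, led by Podn (5.56 ± 0.70) and Lum (5.29 ± 0.58), and the 3 higher in SMP, Kera (−3.02 ± 0.41), Chad (−1.93 ± 0.35) and Fmod (−1.92 ± 0.31), are among the tendon genes above. Matricellular genes, whose products tune cells rather than bear load, were higher in FAP for 13 of 22 and in SMP for 6. Nov (5.54 ± 0.47), Smoc2 (5.11 ± 0.62) and Spon1 (4.35 ± 0.41) led in FAP. Thbs4 was at 2726 and 2367 CPM in SMP against 272 to 368 in FAP (−2.95 ± 0.20), and Misc held 16119, so SMP stood at 15.8% of Misc. Wisp1 (−3.59 ± 0.17) and Spp1, osteopontin (−3.59 ± 0.33), were also higher in SMP.

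Of 38 matrix receptor genes, 20 were higher in SMP and 15 higher in FAP. Sgca, a sarcoglycan of the muscle membrane, was at 18.8 and 20.3 CPM in SMP and at 0.236, 0, 0 and 0.0952 in FAP (−7.60 ± 0.47). Itgb4 (−4.74 ± 0.34), Itga6 (−3.41 ± 0.32) and Itga3 (−3.33 ± 0.40), which bind laminin, were higher in SMP as Itga7 was, and Itga6 was again highest among the FAP libraries in replicate 1 (15.0 CPM against 4.86 to 7.35). FAP held more of the collagen receptor Itga11, at 404, 378, 348 and 380 CPM against 11 and 10.9 (5.11 ± 0.39), of Itgb3 (4.41 ± 0.31) and of the proteoglycan Gpc3 (4.45 ± 0.50).

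Both genes of a ligand and receptor pair were higher in the same population about as often as in different ones. The pairs were chosen with earlier results of these data known. Over all genes, 31.1% were higher in FAP and 31.3% in SMP, and no share expected for pairs was worked out. Of 39 pairs of ligand and binding partner that were listed, 12 had the ligand higher in FAP and the partner higher in SMP, 4 the reverse, 9 had both higher in FAP and 5 both higher in SMP, and the other 9 had at least 1 gene that did not pass. The pairs share some genes, 37 ligands and 38 partners in all. Hgf, which rouses satellite cells, was at 13.8, 17.6, 13.0 and 17.5 CPM in FAP against 3.00 and 1.84 in SMP (2.66 ± 0.30), and its receptor Met at 130 and 124 CPM in SMP against 21.1 to 32.0 in FAP (−2.35 ± 0.19). Cxcl12 was at 255 to 275 CPM in FAP against 37.4 and 42.1 (2.73 ± 0.28), opposite to its receptor Cxcr4. Its other listed partner, Ackr3, was higher in FAP as Cxcl12 was (1.63). Igf1, a growth factor for muscle, was at 411 to 611 CPM in FAP against 96.2 and 98.6 (2.47 ± 0.26), and Igf1r was higher in SMP by less (−0.86 ± 0.16). The Wnt agonist Rspo3 (4.28 ± 0.45) and its receptor Lgr4 (−1.05 ± 0.13) divided in the same way, as did Wnt5a (3.44 ± 0.26) and Fzd4 (−1.0 ± 0.10). Pdgfa ran the other way, at 19.5 and 25.1 CPM in SMP against 1.57 to 2.48 in FAP (−3.52 ± 0.22), opposite to its receptor Pdgfra. Gdnf was at 82.6 and 56.0 CPM in SMP against 1.73 to 2.95 (−4.83 ± 0.20), opposite to Ret (1.23 ± 0.24), and Bdnf (−3.20 ± 0.44) opposite to Ntrk2 (4.39 ± 0.32). Among pairs with both genes on the same side, Gas6 with Axl, Il6 with Il6ra and Il33 with Il1rl1 were higher in FAP. Dll1 with Notch1 and Jag1 with Notch2 were higher in SMP. Bmp4 with Bmpr1a, Slit2 with Robo1 and Vegfa with Kdr passed for neither gene. These are levels of RNA, and binding was not measured.

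Other secreted signals held members on both sides. Of 39 Wnt genes, 19 were higher in FAP and 12 in SMP. The secreted antagonists Dkk2, at 206, 217, 187 and 172 CPM against 4.05 and 1.84 (6.03 ± 0.43), Sfrp4 (5.83 ± 0.56) and Sfrp2 (5.32 ± 0.42) were higher in FAP. Sfrp5, of the same family, was at 42.2 and 54.6 CPM in SMP against 0.203 to 1.33 (−6.08 ± 0.39), and Wnt6 (−4.41 ± 0.45) and Wnt4 (−2.65 ± 0.49) were higher in SMP. Of 41 TGF-beta, activin and BMP genes, 19 were higher in FAP and 13 in SMP. Gdf10 was at 237, 215, 212 and 235 CPM in FAP against 1.30 and 0.351 (8.04 ± 0.62), and the activin antagonist Fst, follistatin, at 320 to 388 against 6.32 and 5.26 (5.88 ± 0.46). Mstn, myostatin, was low in both, at 2.92 and 2.81 CPM in SMP and 0.0952 to 0.405 in FAP (−3.49 ± 0.60). Of 59 growth factor genes, 30 were higher in FAP and 14 in SMP, with Fgf10, at 18.2 to 27.5 CPM against 0.162 and 0.175 (6.88 ± 0.42), Fgf7 (4.67 ± 0.27) and Fgf18 (3.57 ± 0.20) on the FAP side.

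Cell cycle genes were higher in SMP, 21 of 27 against 2 higher in FAP, with a median of −1.80. Mki67, a marker of cycling cells, was at 40.8 and 101 CPM in SMP and at 5.42, 6.59, 3.42 and 6.95 in FAP (−3.67 ± 0.36). Top2a was at 21.6 and 64.9 CPM against 3.34 to 7.80 (−3.01 ± 0.39) and Cenpf at 9.24 and 31.1 against 0.835 to 1.62 (−4.16 ± 0.43). For all of these SMP replicate 2 was the higher library by over 2-fold, as for Myog, whereas Ccnd1, cyclin D1, was even at 125 and 121 CPM against 13.9 to 22.8 (−2.70 ± 0.19). Of 16 cell cycle inhibitors, 9 were also higher in SMP and 2 in FAP. Cdkn2c (−2.05 ± 0.20), Btg1, at 930 and 979 CPM against 263 to 347 (−1.70 ± 0.14), Gas1 (−1.13 ± 0.14) and Cdkn1b (−0.81 ± 0.11) were among them.

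Housekeeping groups moved by less. Of 34 secretory pathway and folding genes, 24 were higher in FAP and 3 in SMP, with a median of 0.66. The collagen secretion regulator Creb3l1 (2.15 ± 0.15), the retrieval receptor Kdelr3 (2.08 ± 0.17) and the cargo receptor Surf4 (1.26 ± 0.11) were among the FAP genes, and the chaperone Hspa5 was higher in SMP. Of 38 ribosomal protein genes, 20 were higher in SMP and 1 in FAP, with Rpl4 at 1662 and 1974 CPM in SMP against 824 to 1001 in FAP (−0.97 ± 0.11) and Rplp1 as the exception (0.90 ± 0.17). Of 35 oxidative phosphorylation genes, 14 were higher in FAP and 1 in SMP, led by Cox6c (1.22 ± 0.33). In DKO, 0 of these 35 were higher in FAP and 15 in SMP, and the difference between WT and DKO was called for 13. The WT counts of the ribosomal and oxidative phosphorylation genes also depend on single choices. With library totals alone, 31 ribosomal genes were higher in SMP, and without SMP replicate 2 the number was 12. For oxidative phosphorylation, library totals alone gave 3 higher in FAP and 8 in SMP, and without SMP replicate 1, 5 were higher in FAP. Immediate early and dissociation genes were divided by count, 8 of 25 higher in FAP and 7 in SMP, near the shares of all genes. Their summed level was 42819 to 45398 CPM in FAP and 75959 and 65924 in SMP. In DKO, 15 were higher in FAP and 2 in SMP, and the difference between WT and DKO was called for 10. Socs3 (1.45 ± 0.19) and Junb (1.08 ± 0.22) were higher in FAP, Egr2 (−1.17 ± 0.11), Egr3 (−1.44 ± 0.13) and Maff (−1.08 ± 0.16) in SMP, and Fos stood at 3410 to 4058 CPM in FAP and 3988 and 3772 in SMP (adjusted p = 0.66). With library totals alone, Fos passed as higher in SMP (−0.34, adjusted p = 0.017).

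Of 30 Hox and limb genes tested, 13 were higher in SMP and 5 in FAP (3 without FAP replicate 2, FAP replicate 4 or SMP replicate 1). The forelimb factor Tbx5, detected here in hindlimb muscle, was at 15.9, 16.0, 14.3 and 11.4 CPM in FAP against 0 and 0.351 in SMP (6.31 ± 0.45). Hoxc10 was at 124 and 123 CPM in SMP against 43.5 to 49.5 (−1.44 ± 0.10), and Hoxa9 (−1.86 ± 0.21), Hoxc9 (−1.99 ± 0.20) and Hoxa5 (−2.0 ± 0.24) were higher in SMP. Imprinted genes, expressed from 1 parental copy, were divided, 7 of 21 higher in FAP and 9 in SMP. Ndn, necdin, was at 168, 162, 159 and 163 CPM in FAP against 10.5 and 12.6 (3.81 ± 0.28). Peg3 was at 736 and 569 CPM in SMP against 83.5 to 114 (−2.70 ± 0.20), the non-coding RNA Meg3 at 1090 and 907 against 199 to 257 (−2.14 ± 0.19), and Zim1 at 100 and 102 against 12.1 to 20.9 (−2.60 ± 0.34). Cadherins were higher in SMP for 15 of 22, with Cdh2, N-cadherin, at 39.4 and 40.9 CPM against 3.34 to 6.0 (−3.22 ± 0.17), Fat3 (−5.24 ± 0.31) and Cdh4 (−3.19 ± 0.35). Axon guidance genes were even, 17 of 48 each way. Sema3c was at 658 to 721 CPM in FAP against 28.5 and 28.4 (4.59 ± 0.50) and Slit3 was higher in FAP (2.95 ± 0.24), whereas Ephb1, at 27.6 and 23.4 CPM against at most 0.471 (−6.92 ± 0.47), Epha2 (−4.03 ± 0.20) and Sema6a (−3.17 ± 0.15) were higher in SMP. Among intermediate filament and nuclear envelope genes, 10 of 15 were higher in SMP, among them Nes, nestin (−3.99 ± 0.22), and Lmnb2, at 36.6 and 62.3 CPM against 6.26 to 7.22 (−2.88 ± 0.18). Vim, vimentin, was higher in FAP, at 2294 to 2537 CPM against 805 and 856 (1.52 ± 0.14), and Syne1, nesprin 1, was higher in SMP by less (−0.40 ± 0.15), a call lost without SMP replicate 1 (−0.28, adjusted p = 0.23) and without FAP replicate 3 (−0.37, adjusted p = 0.051). Without SMP replicate 1, 6 of the list were higher in SMP.

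The same contrast was measured in the DKO condition, with 4 FAP and 2 SMP libraries that are separate from the WT ones. There 4140 genes were higher in FAP (29.2%) and 4204 higher in SMP (29.6%). Of the 4407 genes higher in FAP in WT, 3273 (74.3%) were called the same way in DKO and 43 the opposite way. Of the 4431 higher in SMP in WT, 3197 (72.2%) were called the same way and 63 the opposite way. The difference between WT and DKO was called for 1465 genes, or 10.3%, of which 768 were shifted toward FAP in WT and 697 toward SMP in WT. These shares and counts take in SMP DKO replicate 2. The shares of 74.3% and 72.2% were both lower in a fit with replicate 1 as the only SMP DKO library. Replicate 2 stood apart, with a summed FAP identity level of 12068 CPM against 2551 in replicate 1 and a leukocyte sum of 869 against 41.8. Its Pdgfra, Pi16, Gsn and C3 were at 10.6%, 10.2%, 12% and 10.4% of the FAP DKO mean, and those of replicate 1 at 0.966%, 0.719%, 2.08% and 0.224%. Without it, an alternative chosen after its values were seen, 360 genes in place of 768 were shifted toward FAP in WT, and 748 of the 1465 were called again with the same sign. The differences of Pdgfra (2.82 ± 0.74), Pi16 (4.09 ± 0.93), Gsn (1.80 ± 0.54) and C3 (3.87 ± 1.12) between WT and DKO then missed the threshold, and that of C3 turned to −0.71.

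Several differences between WT and DKO were called with and without that library, as for the genes that follow. The metabolic enzyme Ddah1 was at 8.11 and 8.33 CPM in SMP WT and 0.311 ± 0.104 (SD, n = 4) in FAP WT, but at 5.27 and 7.41 in SMP DKO and 3.94 ± 0.588 in FAP DKO. Its log2 difference was thus −4.67 ± 0.28 in WT and −0.66 ± 0.22 in DKO (adjusted p for the difference 3.7e-07). Rgs4, which turns off G proteins, was at 138 and 121 CPM in SMP WT and 14.6 and 29.3 in SMP DKO (−5.51 ± 0.34 in WT, −0.76 ± 0.33 in DKO). Thbs4 was 330 ± 44.9 CPM in FAP WT and 3163 ± 737 in FAP DKO, where SMP had 1963 and 3212, so the WT difference of −2.95 stood against 0.29 ± 0.20. Tnc was alike, with −2.49 ± 0.14 in WT and −0.58 ± 0.14 in DKO. Hspb8 was at 28.7 and 25.5 CPM in SMP WT and 173 and 165 in SMP DKO, and its difference was 3.79 in WT and 0.98 ± 0.16 in DKO. The Notch targets Hey1 (−4.49 in WT, −2.81 ± 0.13 in DKO) and Heyl (−4.20 and −2.53 ± 0.19), Col22a1 (−7.32 and −4.10 ± 0.34) and Meg3 (−2.14 and −0.34 ± 0.19) had smaller differences in DKO. Myom2, a sarcomere gene, was at 2.00 to 4.26 CPM in FAP WT against 0.405 and 0.351 in SMP WT, and at 1.40 ± 0.269 in FAP DKO against 4.61 and 9.78 in SMP DKO. It was therefore higher in FAP in WT (2.94 ± 0.58) and higher in SMP in DKO (−2.33 ± 0.43). Nfe2l3 (−1.96 ± 0.43 in WT, 2.74 ± 0.43 in DKO) and Slitrk1 (−2.41 ± 0.40 and 1.72 ± 0.53) crossed in the opposite sense. The WT difference of Nfe2l3 did not pass without SMP WT replicate 1 (−1.0, adjusted p = 0.13).

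**Figure D5:**
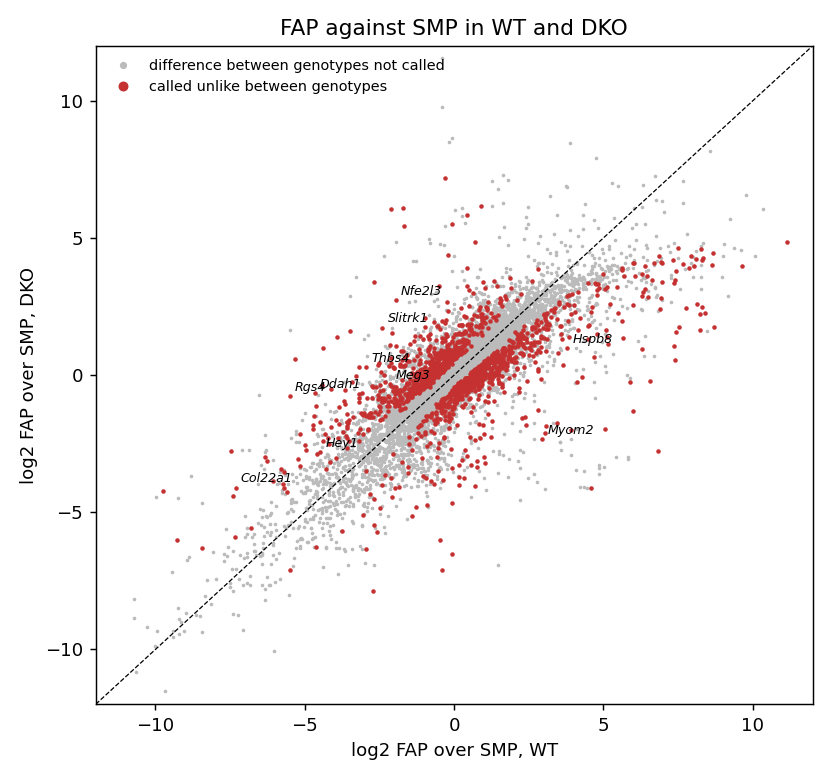
Log2 difference FAP over SMP in WT (horizontal axis) and in DKO (vertical axis) for all 14179 genes tested, with both axes on the same scale and a dashed line where the differences are equal. Red points are the 1465 genes whose difference was called unlike between genotypes, and labels mark genes named in the text, such as Thbs4, Ddah1, Rgs4 and Myom2.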

How the data were processed

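RNA-seq of 20 libraries was analysed from the table of raw counts per gene that the authors deposited. The design text of the series gives OSA as the aligner, with mm10 as the genome and RefSeq as the gene models. The submitters' processing notes add DESeq2, with no version. What counted the reads, and on which strand, is not given in the sources, so overlapping and antisense genes cannot be told apart. Symbols were matched by identifier to RefSeq on GRCm38.p6 (24312 of 24393 genes), 53 symbols were restored in this way, and 5031 genes had no count. Genes were kept by filterByExpr (minimum count 10, minimum total 15), which left 14179, and fitted with edgeR 4.0.16 in R 4.3.3 (TMM factors, glmQLFit robust, glmQLFTest) over all 20 libraries in 6 groups, which share 1 estimate of the spread. Adjusted p (Benjamini-Hochberg over all genes tested) below 0.05 was called. Groups came from the library titles. Library totals were 9669174 to 13042515 counts in the 6 WT libraries compared. Nothing states that libraries of a group came from separate animals, so p-values measure the spread between these samples, which may be technical. For a group with no read, a fold is a bound against 3 counts over the group, and with 1 to 3 reads it is a ratio with an exact 95% interval that covers counting error only.

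The genes compared, the gene lists and the pairs were chosen with earlier results of these data known. Named genes were the 15 largest differences each way (mean CPM of at least 5 in the higher group, groups not overlapping, no predicted genes), the 10 largest CPM differences each way, up to 8 called members of each list with CPM of at least 5, the whole of lists of up to 12, the markers, the pair genes, and the 6 largest WT to DKO differences each way. Other genes named, among them Chrnd, Chrng, Musk, Hey1, Thbs4 and Meg3 as WT to DKO examples and members without a passing test, were chosen after their values were seen. Some genes that the rule names are not reported here. The script was tested on simulated data. Alternatives were DESeq2 size factors, library totals alone, the DESeq2 1.42.0 Wald test, no filter, the 6 WT libraries alone, the replicate number or column letter as a block, thinning to the smallest library, a threshold of 0.01, and each WT library left out. Deviations from the group mean had r = 0.026 and 0.064 across genes between same-numbered FAP and SMP libraries. Between those in the same set of column letters r was 0.1 and 0.051. With 2 SMP libraries their deviations mirror each other, so this check cannot exclude pairing. No label pairs the libraries, so the main fit held no block.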

Additional observations from a re-analysis of the deposited data

Results flagged for a closer look

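Among 252 named genes, 15 (5.95%) had 1 FAP WT library far from the other 3. The rate of about 1 in 20 that chance would flag holds for normally spread values and not for counts near 0. A gene read in only 1 FAP library, such as Myog, Vgll2 or Cdh15, is flagged whatever its level, so the 2 rates cannot be compared. In 10 of the 15 the far library was replicate 1. That library was high for Acta2 (23.9 CPM), Ptprc (1.81), Cdh15 (1.18), Rapsn (0.628), Podn (415), Fndc3c1 (0.157), Lmod2 (0.157) and Myog (0.0785, which is 1 read), and low for Ccl11 (538) and Dcn (16746). Replicate 2 stood high for Fst (388) and Nov (440). Replicate 3 stood low for Col4a4 (78.1) and high for Vgll2 (0.0835, 1 read), and replicate 4 high for Slit2 (8.09).

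For 16 named genes the FAP over SMP difference was called unlike between WT and DKO by the interaction term of edgeR's quasi-likelihood test. Written as WT minus DKO on the log2 scale, it was positive for Myom2 (5.27), Pi16 (4.09), C3 (3.87), Pdgfra (2.82), Hspb8 (2.82) and Gsn (1.80). Without SMP DKO replicate 2, 4 of these missed the threshold, at 1.17 for Pi16, −0.71 for C3, 0.24 for Pdgfra and 0.03 for Gsn. It was negative for Rgs4 (−4.75), Nfe2l3 (−4.69), Slitrk1 (−4.13), Ddah1 (−4.01), Thbs4 (−3.24), Col22a1 (−3.23), Tnc (−1.91), Meg3 (−1.80), Hey1 (−1.68) and Heyl (−1.66).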

How the results depend on the processing

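The number of genes higher in FAP WT ranged from 3320 (library totals alone) to 4627 (no filter on low counts), and the number higher in SMP WT from 3677 (adjusted p below 0.01) to 5891 (library totals alone), against 4407 and 4431. Of the 8838 calls, 7390 (adjusted p below 0.01) to 8740 (DESeq2 size factors) were made again with the same sign in settings that left out no single SMP library. Without SMP WT replicate 1, fewer still were made again. No call turned to the opposite sign in any setting. Of 275 gene results, 252 had the same verdict in every setting, and so did 64 of 78 list counts within 1.5 times. The counts that moved most were endothelial genes higher in SMP (1, with a range of 0 to 10) and oxidative phosphorylation genes higher in SMP (1, and 8 with library totals alone). With the replicate number as a block, 4414 genes were higher in FAP and 4371 in SMP, and 665 and 640 genes differed between WT and DKO. The replicate block ended the calls of Cdh5 (adjusted p = 0.085) and Dll4 (0.053) and the WT to DKO differences of Pdgfra (0.15), Pi16 (0.12), Gsn (0.19) and C3 (0.26). Without SMP DKO replicate 2, chosen after seeing the data, 360 genes in place of 768 had a positive WT to DKO difference, and that of C3 was −0.71.

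All sign changes within WT were in genes that did not pass. Bmp4 was at −0.01 with DESeq2 size factors or the DESeq2 Wald test, −0.25 with library totals alone, −0.05 with the replicate block by number, and −0.00 when thinned. Library totals alone gave −0.08 for Bmpr1a and −0.23 for Robo1. Slit2 was at 0.10 when thinned, Alas2 at −0.15 with the block by column letters, and Vegfa at 0.01 without the filter and 0.06 with the block by column letters. Over single WT libraries left out, values ran from −0.90 to 0.49 for Ckm, −0.38 to 5.44 for Ptprc, −0.17 to 1.40 for Alas2, −0.02 to 0.13 for Robo1, −0.11 to 0.05 for Vegfa and −0.01 to 0.05 for Bmp4. The causes were not tested. With 2 SMP libraries, small differences and genes with few reads are the least certain.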
